A study of Mus musculus with 2 samples.

Results

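The TGF-beta genes described here are 10 genes of the pathway that brings the cytokine TGF-beta 1 to the nucleus of a microglial cell: the ligand gene Tgfb1, its anchoring partner Nrros, the receptor genes Tgfbr1 and Tgfbr2, the SMAD genes Smad2, Smad3, Smad4 and Smad7, and the co-repressor genes Ski and Skil. They were taken as all non-control probes whose gene name in the scanner files equals 1 of these symbols, with Nrros written there under its older symbol Lrrc33. This gave 17 probes of 60 bases for 10 of 35019 named genes. The genes were chosen with their values known, so their values describe these samples and are not tested. The cells were microglia, the macrophages that reside in brain and spinal cord, sorted from spinal cord of atopic diathesis model mice and of control mice. Atopic diathesis is a tendency towards allergic disease. The submitters' titles call the first sample activated and the second normal. There was 1 array per group, both 1-colour Cy3 arrays, and strain, age, the way the model was made and the number of animals in a sample are not given in the sources used here.

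TGF-beta 1 is secreted in a latent form, bound to its own propeptide. On microglia and other macrophages the leucine-rich repeat protein NRROS (LRRC33) holds this latent form at the cell surface, where integrins release the active cytokine. Active TGF-beta binds the type II receptor TGFBR2, which phosphorylates the type I receptor TGFBR1, and TGFBR1 phosphorylates SMAD2 and SMAD3. These join SMAD4 and enter the nucleus, whereas SMAD7 blocks the receptor and SKI and SKIL repress SMAD target genes. Microglia need this signal to keep their mature gene expression, and mice without Nrros have abnormal microglia and a neurological disorder.

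What each probe reads matters for the results, because several of these genes have a bright and a dim probe. The following 30-base stretches, with mm9 coordinates as the files give them, come from the bright probes of 4 members. Capitals mark a polyadenylation hexamer, AATAAA or ATTAAA, a signal found shortly before the end of a transcript.
Nrros, chr16:32142911-32142940, minus strand: ggtgaaatatttATTAAAcgacattctgtg
Tgfbr1, chr4:47427763-47427792, plus strand: ggaagcaatgcaAATAAAcaactttttccc
Smad3, chr9:63494601-63494630, minus strand: aaacgcccttctAATAAActtttcaccgta
Skil, chr3:31021213-31021242, plus strand: tatagttttatgATTAAAattgctgtggtt
Another Tgfbr1 probe also holds a hexamer but was not well above background on the arrays.
Tgfbr1, chr4:47374123-47374152, plus strand: aagtgcatggtaAATAAAgtggcagactgt
The next 3 probes are dim and hold neither hexamer, but brightness did not follow the hexamer throughout. The Smad2 probe holds one and was dim, at 23.2 in atopic diathesis and 75.02 in control, whereas the brighter Tgfbr2 probe, at 960 and 1451 in the same order, and the second Tgfbr1 probe, at 864 and 623, hold none. The 3 dim probes are shown whole, and the capitals at the end of the Tgfbr2 probe mark the stop codon of a reading frame that is open over the rest of the probe.
Tgfb1, chr7:26489877-26489936, plus strand: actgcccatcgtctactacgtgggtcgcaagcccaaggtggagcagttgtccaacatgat
Tgfbr2, chr9:115999496-115999555, minus strand: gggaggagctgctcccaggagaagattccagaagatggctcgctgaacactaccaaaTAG
Skil, chr3:31016390-31016449, plus strand: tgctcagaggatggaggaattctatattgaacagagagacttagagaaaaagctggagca
Of the 17 member probes, 8 hold 1 of the hexamers on the strand of the probe as printed, and 7 of these 8 were well above background on both arrays, against 4 of the 9 without. Over all probes with a RefSeq mRNA accession, 17.3% held a hexamer in their 60 bases. Of those 31.0% were well above background on both arrays, against 23.6% of the others. None of the 17 probes shared a 20-base run with a probe of another gene. A match of these letters describes the probe and does not show where the transcript ends.

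Signals below are the scanner software's background-subtracted fluorescence on a linear scale. A probe is called measured where both arrays read it well above background, and a gene's value is the mean over its measured probes. Differences are log2 of atopic diathesis over control, set against the median of the 9217 genes measured on both arrays, and the fold used is 2. Each group is a single array, so no difference could be checked against replicates or tested. Precision is limited by this number of arrays, and the one error that can be estimated is the scatter among repeated spots of a probe. Probes printed 10 times gave a spot SD on the log2 scale of 0.215 in atopic diathesis and 0.218 in control for signals under 100, 0.084 and 0.091 for signals of 100 to 1000, and 0.053 and 0.052 for signals of 1000 or more. The 95% intervals given with single-spot probes rest on these and do not cover variation among animals, cell sorts or RNA amplification. Near the detection limit they may be too narrow, as for Smad2 and the dimmer Tgfbr2 probe. The Tgfb1 spots, at that limit, had an SD of 0.35 in atopic diathesis and 0.32 in control. A lower level in a sorted sample may be fewer cells with the transcript or less of it per cell, which these arrays cannot tell apart.

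Of the 10 genes, 8 were measured on both arrays: 1 was at least 2-fold higher in atopic diathesis microglia, 3 were lower by 2-fold or more, and 4 lay within 2-fold. The higher one was Nrros, and the lower ones were Smad4, Smad2 and Smad7. Among all measured genes 17.3% were higher by that much, 15.6% were lower, and 32.9% lay past 2-fold either way. Because the genes were chosen from this comparison, nothing is read from their count. Their median difference was -0.48, beside 0 for all measured genes by construction. Tgfb1 and Ski were not well above background in either sample.

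**Figure D1:**
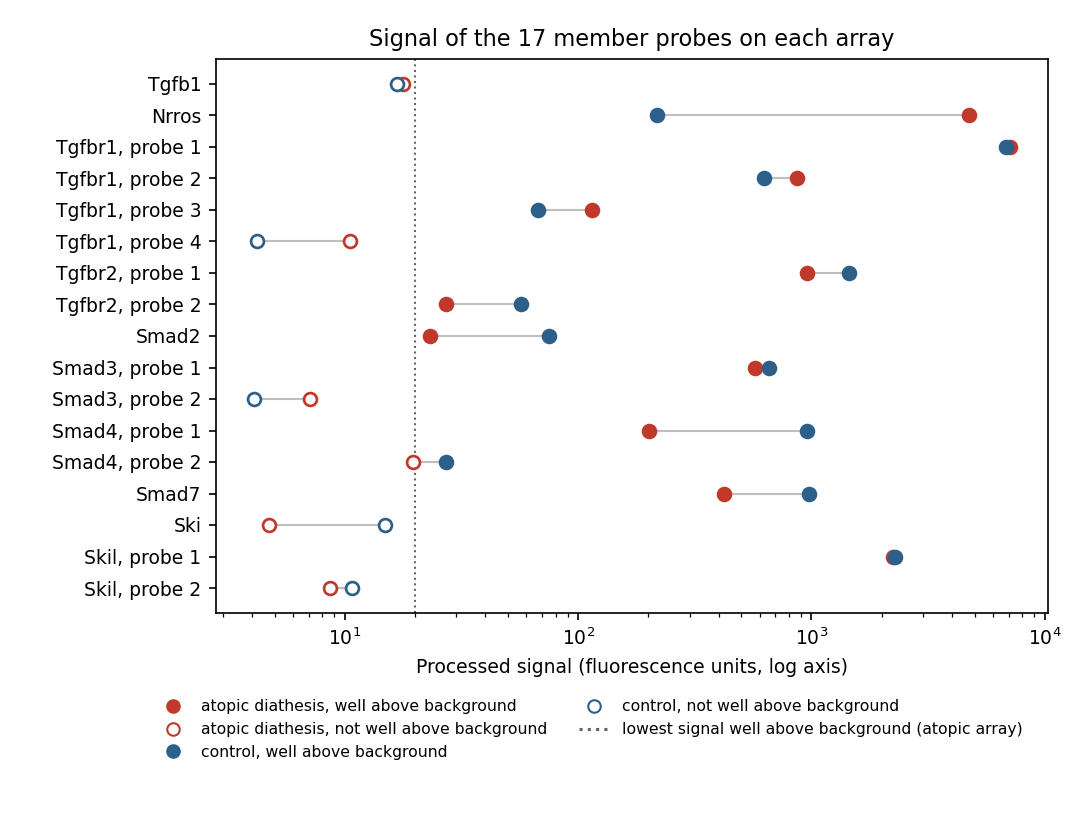
Processed signal (fluorescence units, log axis) of each of the 17 member probes on the atopic diathesis array (red) and the control array (blue). Filled points were well above background, open points were not, and the dotted line is the lowest signal well above background on the atopic diathesis array (19.9). Nrros spans the widest gap, and the probes of Tgfbr1 and Skil nearly coincide at their brightest.

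The ligand gene Tgfb1 was represented by 1 probe printed 10 times on each array. Its signals ran from 10.96 to 21.9 with a median of 19.7 over 10 spots in atopic diathesis, and from 13.6 to 27.3 with a median of 15.9 over 9 usable spots in control. The arrays overlapped, with an SD between spots of 0.35 and 0.32 on the log2 scale. In each sample 1 usable spot was well above background, and the lowest signals well above background on the arrays were 19.9 in atopic diathesis and 19.8 in control. The Tgfb1 probe is thus at the detection limit in both samples and gives neither a level nor a fold.

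Nrros, whose product holds latent TGF-beta 1 at the microglial surface, read 4712 in atopic diathesis and 218 in control. This is a log2 difference of 4.47 (95% spot interval 4.26 to 4.68), or 22.2-fold higher in atopic diathesis. Both readings were far above the detection limit. Of the 9217 measured genes 41, Nrros included, had a difference at least as high (0.445%), and among the brightest genes by mean signal (the top 20%) 4 of 1844 were at least as far from the median gene in either direction. The value rests on 1 probe and 1 spot per array. Within that spot the median pixel was 5017 in atopic diathesis and 305 in control, with a pixel SD of 635 over 44 pixels and of 40.2 over 39 pixels, and the local background was 52 on both arrays. Neither spot was marked as an outlier. The 5 spots of other genes within 2 rows and 4 columns that were well above background on both arrays had a median difference of -0.47, so the spots around it did not share its direction.

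Both receptor genes lay within 2-fold of the median gene, although for Tgfbr2 this did not hold under 1 of 11 alternative settings. Tgfbr1, the type I receptor kinase, had 3 measured probes. The brightest, at the hexamer printed above, read 7080 in atopic diathesis and 6846 in control, a log2 difference of 0.08 (-0.06 to 0.23). The second read 864 in atopic diathesis and 623 in control (0.50, interval 0.26 to 0.75), and the dimmest of the 3 read 115 and 67.3 in the same order of samples (0.81, interval 0.35 to 1.26). All 3 lay above the median gene, the dimmer ones further, and only for the brightest did the interval include 0. By the array annotation the 2 brighter probes belong to the RefSeq mRNA, and the dimmest to another Tgfbr1 transcript. The gene's mean, which weighs the 3 probes equally, was 0.46. A further probe, at 10.5 in atopic diathesis and 4.18 in control, was not well above background in either sample. It too is annotated to another transcript than the RefSeq mRNA. With arrays scaled to their 75th percentile over all probes, the gene's mean difference was -0.04, so its side of the median depended on the scaling.

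Tgfbr2, the type II receptor that binds the ligand first, was below the median gene at both of its probes. The brighter probe read 960 in atopic diathesis and 1451 in control, a log2 difference of -0.56 (-0.76 to -0.37). The probe that ends in the stop codon read 27.0 and 56.7 in the same order, a difference of -1.04 (-1.64 to -0.44). The gene's mean was -0.80, 1.74-fold lower. The intervals of the 2 probes overlap, and neither includes 0. With arrays scaled to their 75th percentile over all probes, the mean was -1.30, past 2-fold.

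**Figure D2:**
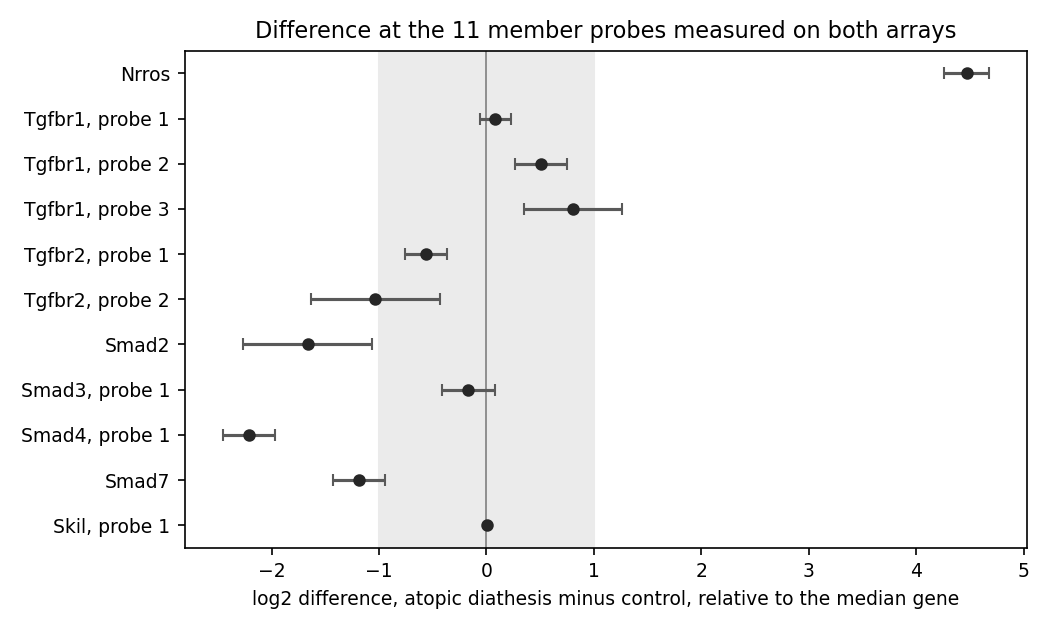
Difference (log2, atopic diathesis minus control, relative to the median measured gene) at the 11 member probes measured on both arrays. Bars are 95% intervals from spot error alone for probes printed once, the grey band is within 2-fold, and Skil has no bar because its probe was printed 10 times. Nrros lies at 4.47, Smad4, Smad2 and Smad7 lie left of the band, and the dimmer Tgfbr2 probe lies at its edge.

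Among the SMAD genes, Smad4, the common partner of all receptor-regulated SMADs, was furthest below the median gene. Its brighter probe read 201 in atopic diathesis and 953 in control, a log2 difference of -2.21 (-2.45 to -1.97), 4.63-fold lower. Of all measured genes 4.24% were at least as low. Its second probe was above background in control only, at 27.2, beside 19.7 in atopic diathesis. That reading gives a bound of 1.34-fold lower, which takes no account of spot error. After background subtraction both probes were lower in atopic diathesis. Before subtraction, the mean spot signal of the second probe was slightly higher in atopic diathesis than in control. The direction of the second probe thus depended on the subtraction, and it is too near the detection limit to give a size. Averaged in without a background filter, it brought the gene to -1.40. The 8 measured spots around the brighter probe had a median difference of 1.19, opposite to that of the probe. Around the other lower members the neighbouring spots lay on the same side as the probe. Their median was -0.50 over 6 spots for Smad2 and -0.26 over 13 spots for Smad7.

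Smad2, which TGFBR1 phosphorylates directly, read 23.2 in atopic diathesis and 75.02 in control on its only probe. The log2 difference was -1.66 (-2.26 to -1.06), 3.17-fold lower. The atopic diathesis reading stands just over the lowest signal well above background (19.9), so the size depends on the background treatment. It came to -0.68 with normexp background correction and to -0.58 without any correction, both within 2-fold. Normexp was run with 50 added to each signal, and the uncorrected signal still holds the background. Either constant makes a difference between dim readings smaller by construction, so these values do not check its size independently. Smad3, which shares this role with Smad2, read 574 in atopic diathesis and 660 in control, a difference of -0.17 (-0.41 to 0.08). Its second probe was not well above background in either sample, with signals of 7.11 in atopic diathesis and 4.07 in control. Of these receptor-regulated SMAD genes, Smad2 thus lay further below the median gene than Smad3, at a signal close to the detection limit.

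Smad7, the inhibitory SMAD that TGF-beta itself induces, read 422 in atopic diathesis and 980 in control, a log2 difference of -1.18 (-1.43 to -0.94), 2.27-fold lower. The interval reaches inside the 2-fold line. Of all measured genes 12.7% were at least as low. In the files Smad2, Smad4 and Smad7 lie on chromosome 18, and Smad3 lies on chromosome 9.

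Skil, a co-repressor of SMAD complexes and itself a TGF-beta target, was the member closest to the median gene, with a log2 difference of 0.01. Its bright probe, printed 10 times, ran from 2059 to 2437 with a median of 2259 in atopic diathesis and from 2140 to 2464 with a median of 2307 in control. The spots of both arrays overlapped over nearly their whole range, with an SD of 0.075 and 0.067 on the log2 scale. This is the best measured member, since 10 spots per array support it. A second Skil probe, shown whole above, was not well above background in either sample, at 8.64 in atopic diathesis and 10.7 in control. The related co-repressor Ski had 1 probe, at chr4:154528238-154528297 on the minus strand, with signals of 4.73 in atopic diathesis and 14.8 in control. Neither signal was well above background, so no fold is given.

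**Figure D3:**
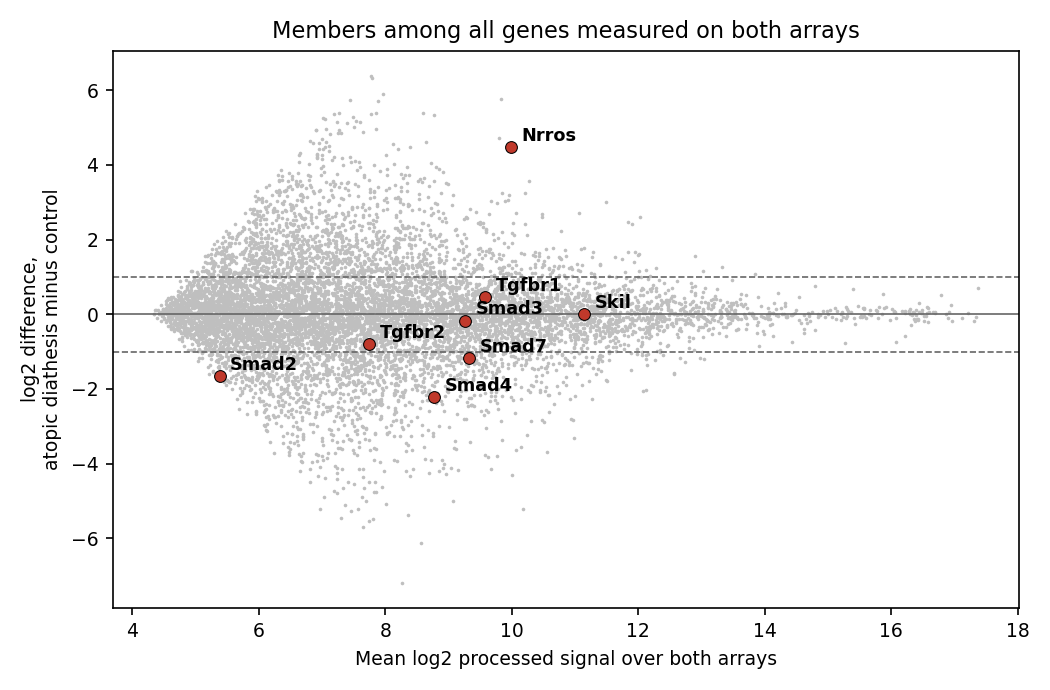
Each grey point is 1 of the 9217 genes measured on both arrays, by mean log2 processed signal and by log2 difference (atopic diathesis minus control, relative to the median gene). Dashed lines mark 2-fold, and the 8 measured members are in red. Nrros stands near the upper edge at its signal, and Skil, Smad3 and Tgfbr1 lie close to 0.

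How often a gene lay past 2-fold depended on its signal. With the measured genes split by mean signal into 5 equal bins, 20.1% did so in the dimmest bin, 46.1%, 46.6% and 36.5% in the next 3, and 15.2% in the brightest. Smad4 and Smad7 belong to the bin next to the brightest, where 10.3% of genes were at least as far from the median gene as Smad4 and 30.3% at least as far as Smad7. Smad2 belongs to the dimmest bin, where 6.51% were at least as far. Nrros belongs to the brightest, where the share was 0.217%. Nrros falls in that bin through its atopic diathesis reading, since its control reading of 218 lies within the range of the middle bin (125 to 282). As the members were chosen from this comparison, these shares describe where they lie and support nothing further.

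The rest of the pathway was followed in 9 lists of genes. Outside the members they hold 100 genes on the array, of which 52 were measured. Of these 4 were higher by 2-fold or more and 8 were lower, 23.1% in all beside 32.9% of all measured genes, and their median difference was -0.10. Genes were counted by the mean of their measured probes, and the lower ones include Fkbp1a, whose probes disagreed. For the pathway genes too, normexp background correction, with its added 50, brought dim readings nearer to the median gene by construction. Bmpr2 came to -1.81, Smad5 to 1.26, Junb to -1.03 and Traf6 to -1.25. Among ligands of the family, 13 of 14 genes, Tgfb1, Tgfb2 and Tgfb3 included, were not well above background in either sample, and Bmp4 lay at 0.30.

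Of 15 genes for latency and activation, 6 were measured, with a median of -0.20. Itgb1, the integrin beta 1 chain, read 166 in atopic diathesis and 447 in control (-1.40), while its second probe was above background in atopic diathesis only, at 34.0 beside 7.55 in control, and so went the other way. Itgav, the alpha v chain that pairs with the TGF-beta activating integrins, was at -0.31 on its measured probe. Its second probe was above background in control only, at 9.23 in atopic diathesis beside 287 in control, so the probes differed widely. Itgb5 lay at -0.42 and the protease gene Furin, which cleaves the TGF-beta precursor, at -0.09. Thbs1, a matrix protein that can activate latent TGF-beta, was above background in atopic diathesis only, at least 2.79-fold higher, a bound that was under 2-fold in 5 of 7 alternative settings. Itgb8 and Lrrc32, the partner that does for regulatory T cells what Nrros does for microglia, were not well above background in either sample. Nrros was the sole gene of this list measured at 2-fold or more above the median gene.

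Receptors outside the TGF-beta pair lay on both sides. Of 9 measured genes of the receptor list, Tgfbr1 and Tgfbr2 included, 2 were lower by 2-fold or more and none was higher. Acvr1 counted as within 2-fold, at 0.22, only as the mean of 2 measured probes that disagreed. The brighter read 1010 in atopic diathesis and 283 in control (1.87), the dimmer 33.5 and 92.0 in the same order (-1.43). No direction is given for Acvr1. Over all measured genes 15.6% were lower and 17.3% higher by that much. Bmpr2, the type II receptor for bone morphogenetic proteins, read 33.5 in atopic diathesis and 287 in control (-3.07, 8.37-fold lower). Acvr2a, a type II receptor for activins, read 279 and 778 in the same order (-1.45), and its second probe was above background in control only. The type I receptor gene Bmpr1a was at -0.91, and Eng, the co-receptor endoglin, at 0.63. Acvr1b, the type I receptor that signals for activin through SMAD2 and SMAD3, was above background in atopic diathesis only, with 637 beside 19.3 in control, at least 32.9-fold higher (6.65-fold without background correction). Its second probe was not well above background in either sample.

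**Figure D4:**
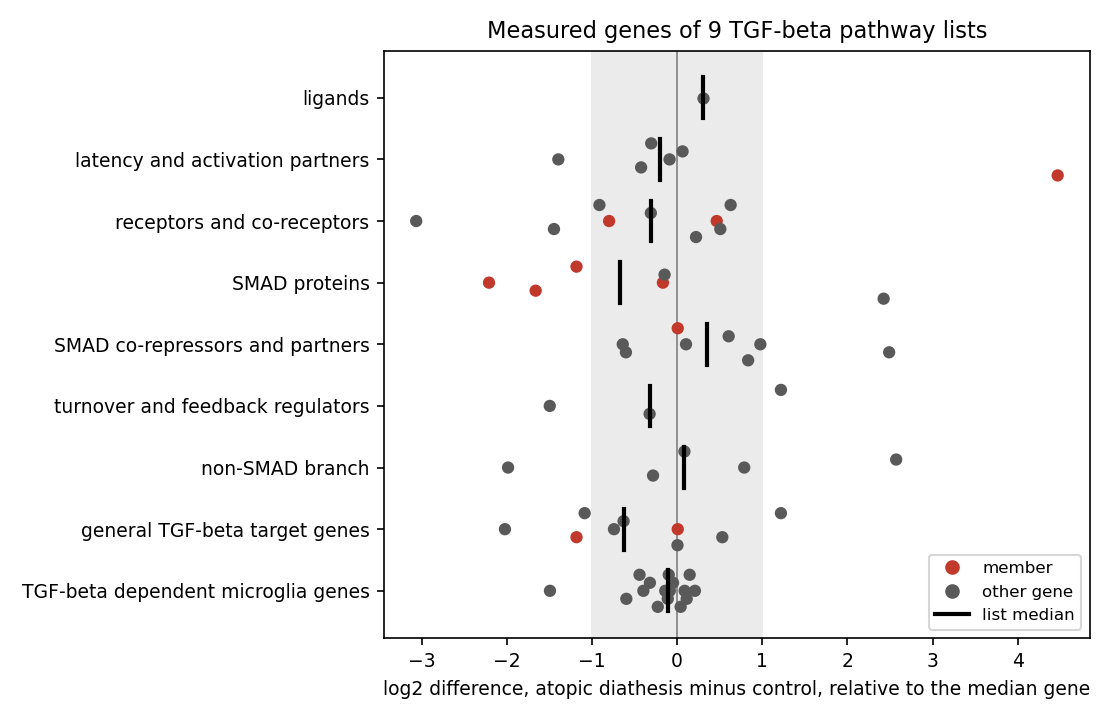
Difference (log2, atopic diathesis minus control, relative to the median gene) of the measured genes of 9 TGF-beta pathway lists. Red points are members, grey points other genes, black bars list medians and the grey band is within 2-fold. A gene in 2 lists appears in both. The TGF-beta dependent microglia genes lie within the band apart from 1, and each of the other lists except the ligands has at least 1 point outside it.

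In the full SMAD list of 8 genes, 6 were measured and their median was -0.68. Beside the 4 members, Smad1, a SMAD of the bone morphogenetic protein branch, averaged -0.15 over 2 measured probes that disagreed. The brighter read 421 in atopic diathesis and 906 in control (-1.07), the dimmer 52.1 and 31.1 in the same order (0.78), and no direction is given for Smad1. Smad5 of the same branch read 149 in atopic diathesis and 28.5 in control, 5.37-fold higher, with a second probe not well above background in either sample. Smad6 and Smad9 were not well above background in either sample. Of 8 measured co-repressors and partners, the member Skil included, 1 was higher, beside 17.3% of all measured genes. It was Tgif1, a repressor that binds SMADs, at 2.49. Its probe shares a 20-base run with a probe named for another gene. Ncor1 at 0.98, Ep300 at 0.83 and Sp1 at -0.64 came next, within 2-fold. Ncor1 has 3 further probes, of which 1 was above background in control only, at 4.17 in atopic diathesis beside 47.8 in control, opposite to the measured one. Trim33, a ubiquitin ligase that binds SMADs, was above background in atopic diathesis only, at least 3.55-fold higher (1.48-fold without background correction).

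Genes that turn SMADs and receptors over had the most one-sided detection of the 9 lists. Of 11 genes in that list 10 were above background in at least 1 sample, and 7 of the 10 were so in atopic diathesis only. The 9 lists together were not one-sided to this degree. Of their 100 genes outside the members, 52 were measured and 35 were above background in neither sample. Those above it in atopic diathesis only numbered 12, these 7 included, and 1 was so in control only. Over all genes above background in at least 1 sample the share detected in atopic diathesis only was 20.8%, and 10.7% were detected in control only, 5.45% with a bound of at least 2-fold lower. Smurf1, a ubiquitin ligase for SMADs and the receptor complex, read 275 in atopic diathesis and 16.3 in control, at least 14.2-fold higher. Smurf2, its close relative, read 195 and 4.34 in the same order at its brightest probe, at least 10.1-fold higher. A second Smurf2 probe, at 60.1 beside 3.98 in control, was likewise above background in atopic diathesis only. The dimmest of its 3 probes, at 21.5 in atopic diathesis and 4.65 in control, was not well above background in either sample.

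Nedd4l, another such ligase, read 206 in atopic diathesis and 7.52 in control, at least 10.7-fold higher. Its second probe, at 4.23 and 14.6 in the same order, was not well above background in either sample. Usp15, a deubiquitinase of the receptor complex, read 158 and 14.6, at least 8.15-fold higher, and Ppm1a, a SMAD phosphatase, was at least 2.55-fold higher. Usp9x and Dab2, at 33.5 and 37.7 in atopic diathesis, had bounds of less than 2-fold. In all 5 of the 10 detected genes had a bound of at least 2-fold, beside 12.3% of all genes above background in at least 1 sample. Without background correction the bounds of Smurf1, Smurf2, Nedd4l and Usp15 shrank to 3.79, 2.75, 2.56 and 2.41-fold, and that of Ppm1a to 1.299-fold. The list was drawn up with earlier results of these data known, and the count describes 2 samples.

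Of the 3 measured genes of that list, the TGF-beta target Pmepa1 was 2.33-fold higher, at 69.5 in atopic diathesis beside 30.5 in control. Its difference of 1.22 fell within 2-fold in 3 of 4 alternative settings (0.41 at the lowest). The ubiquitin ligase Rnf111, which marks SMAD7 and SKIL for degradation, lay at -0.32. Fkbp1a, whose product binds the type I receptor, averaged -1.497 over 3 probes that disagreed. They gave -4.71, -0.44 and 0.66, and the last 2 each share a 20-base run with a probe of another gene. No direction is given for Fkbp1a, although its mean places it among the lower genes in the counts.

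**Figure D5:**
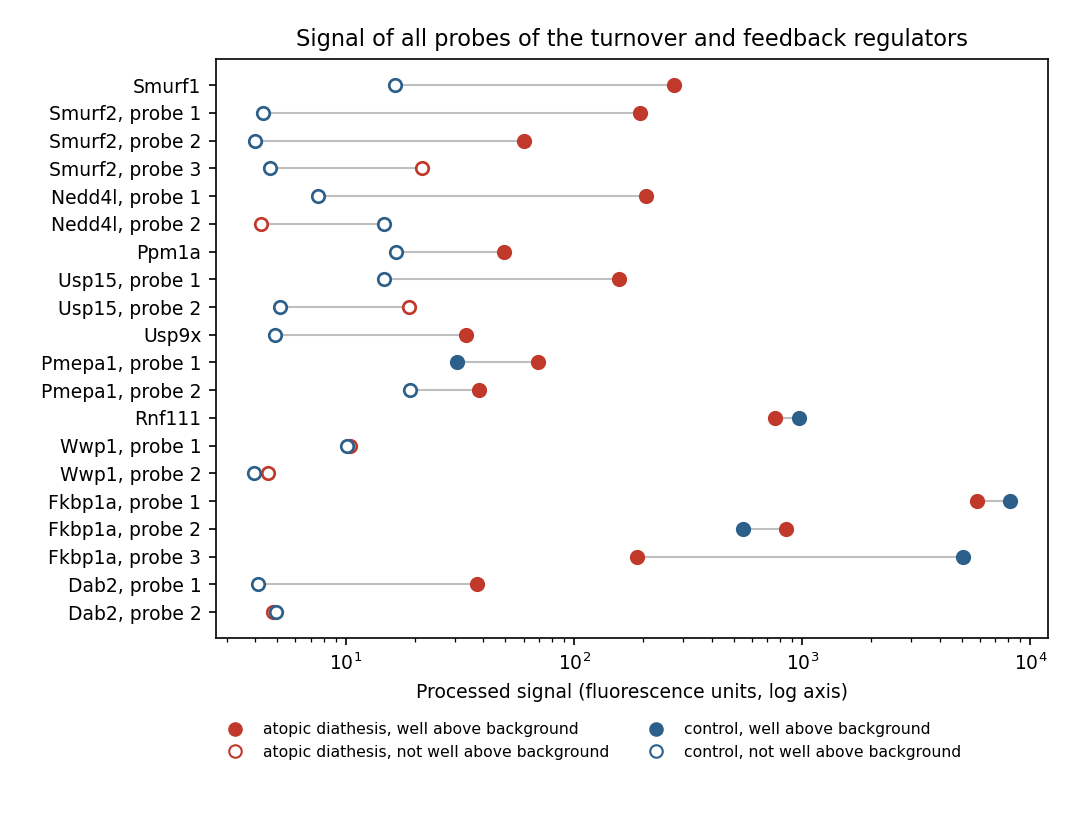
Processed signal (fluorescence units, log axis) of every probe of the 11 turnover and feedback regulators on the atopic diathesis array (red) and the control array (blue); filled points were well above background and open points were not. Smurf1, Smurf2, Nedd4l and Usp15 have a filled red point between 158 and 275 and an open blue point below 20, and the 3 Fkbp1a probes disagree in direction.

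In the branch that does not use SMADs, Ppp2r1a, the scaffold subunit of protein phosphatase 2A, read 1112 in atopic diathesis and 191 in control, 5.95-fold higher. Traf6, the ubiquitin ligase that links the receptor to TAK1, read 43.2 and 175 in the same order, 3.96-fold lower, with 2 further probes not well above background in either sample. Map3k7, which encodes TAK1, was above background in atopic diathesis only, at least 2.26-fold higher (under 2-fold in 5 of 7 alternative settings), and Tab2, its adaptor, lay at 0.79. Mapk14, the p38 kinase, lay at -0.28, with a second probe above background in control only. Tab1, another TAK1 partner, was above background in control only, at 5.96 in atopic diathesis beside 24.5 in control. Its bound of 1.20-fold lower takes no account of spot error, whose SD in control was 0.218 on the log2 scale for signals under 100.

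Genes that TGF-beta is known to induce or repress gave no single direction. Of 9 measured, 1 was higher and 3 were lower, and the median was -0.63. Over all measured genes 17.3% were higher and 15.6% lower by 2-fold or more. The 9 include the members Smad7 and Skil, which were chosen with their values known. The higher one was Pmepa1, and the lower ones were the AP-1 gene Junb (28.4 in atopic diathesis and 118 in control, -2.02), Smad7, and the cell cycle inhibitor gene Cdkn1a, whose 2 measured probes gave -0.59 and -1.58 and whose mean of -1.09 came to -0.68 with normexp. Myc, which TGF-beta represses in many cells, lay at -0.74, Klf10 at 0.53 and Id2 at 0.00. Tgfbi, named for its induction by TGF-beta, was above background in atopic diathesis only, at 655 beside 16.98 in control, at least 33.9-fold higher (7.51-fold without background correction).

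Microglia genes known to depend on TGF-beta were all measured, and 15 of 16 lay within 2-fold, with a median of -0.10. Over all measured genes 32.9% lay past 2-fold, and in the brightest of the 5 bins 15.2% did. Some of them also mark homeostatic microglia in general. The phagocytic receptor gene Mertk was the exception, at 148 in atopic diathesis and 427 in control (-1.49, 2.82-fold lower). By mean signal Mertk falls in the middle bin, where 46.6% of genes lay past 2-fold. Slc2a5, a fructose transporter, was next at -0.60, followed by Tmem119 at -0.44 and Pros1 at -0.40. Gpr34 lay at 0.04, Fcrls at 0.21 and Olfml3 at -0.14.

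The samples carried microglial markers at similar levels. All 9 marker genes, Aif1, Itgam and Sall1 among them, were measured and within 2-fold, with summed signals of 148403 in atopic diathesis and 164278 in control. More than any other gene Itgam carried that sum, with 82663 and 92920 in the same order, and at least 1 of its probes shares 20-base runs with probes of 72 other genes. Markers of border macrophages (5 genes, Mrc1 and Cd163 included), neutrophils (4), and pericytes and fibroblasts (5) were not well above background in either sample. Some markers of other central nervous system cells were detected. Oligodendrocyte genes summed to 1028 in atopic diathesis and 1057 in control, with 3 of 6 measured and Mog not well above background. Astrocyte genes summed to 1022 and 808 in the same order, with 2 of 6 measured and Aqp4 not well above background. The astrocyte gene Gja1 was above background in atopic diathesis only, at 241 beside 10.4 in control, at least 12.5-fold higher. Among oligodendrocyte genes Cnp was 3.25-fold higher, at 216 in atopic diathesis and 68.2 in control. The endothelial sum was 145 in atopic diathesis and 344 in control, with none of 4 measured, Cldn5 not well above background, Pecam1 above it in atopic diathesis only and Flt1 in control only. Monocyte, T cell and B cell genes summed to 169, 334 and 55.6 in atopic diathesis and to 212, 395 and 19.5 in control. Of 5 neuronal genes 4 were not well above background, and Snap25 alone read 84015 and 82155, on a probe that shares 20-base runs with probes of 70 other genes. What part other cells have in the differences of Nrros and the SMAD genes was not tested.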

How the data were processed

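RNA of 1 sorted microglia sample per group was labelled with Cy3 and hybridised to 1-colour Agilent mouse arrays on 1 slide, so the place of an array on it and the group cannot be told apart. The deposited scanner files give fluorescence intensity per spot on a linear scale from Agilent Feature Extraction, version 10.7.1.1 per the file headers and 9.5.1.1 per the submitters' processing notes. A deposited table of the series gives processed intensity by probe, both columns with median 6.64 and with sorted values equal within 0.01 on the log2 scale. Sources used here do not state how it was normalized.

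From the processed signal, control spots and spots marked as outliers (122 in atopic diathesis, 136 in control) were left out, log2 values of a probe's spots were averaged, and a probe counted as above background where more than 0.5 of its usable spots did. No spot was saturated. Of 55681 probes, 27.6% in atopic diathesis and 24.1% in control were well above background. Names came from RefSeq accessions (GRCm38.p6, names only; 27235 probes matched), otherwise from the files. Differences were centred on the median measured gene. A gene above background on 1 array has a bound: its brightest such probe over its own signal on the other array or the lowest signal well above background there, whichever is higher. Bounds take no account of spot error. Named were all members and, per list, the 4 measured genes furthest from the median gene and the 2 largest bounds, plus those past 2-fold and further list and marker genes chosen after their values were seen. A gene of 1 list is not reported here by name and stays in the counts. The members and lists were chosen with earlier results of these data known. Alternatives covered scaling, background correction, filters, probe choice, outlier spots and the deposited table. The calculation of differences was tested on simulated data with the same spot noise at all signals and the real detection calls. That test does not cover the wider scatter of dim readings or the bounds. Tools were Python 3.11.15, pandas 2.3.3 and limma 3.58.1 (normexp with offset 50).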

Additional observations from a re-analysis of the deposited data

How the results depend on the processing

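Alternatives numbering 11 were applied to the members. The count of members at least 2-fold higher was 1 in each, namely Nrros, whose log2 difference ran from 3.97 to 4.55. The count at least 2-fold lower was 2 to 4. Smad4 (-2.71 to -1.40) and Smad7 (-1.68 to -1.04) were past 2-fold in all 11, and Smad2 (-2.16 to -0.58) in 8 of the 10 that measured it. Smad2 fell within 2-fold in both settings that changed the background subtraction (-0.68 and -0.58). Both settings leave a constant in the signal, which makes a difference between dim readings smaller by construction. The settings are not independent: for Smad4, quantile normalization and the deposited table both gave -2.26. The median of the members was -0.98 when arrays were scaled to the 75th percentile over all their probes, which moves the median measured gene by -0.50, and -0.14 with the brighter probes only, which leaves out Smad2; in the other 9 it moved by less than 0.202, the SD that spot error gives a difference. On that percentile scale 14 further pathway genes were at least 2-fold lower, in place of 8. No member past 2-fold changed sign. The side of Tgfbr1, Smad3 and Skil relative to the median gene varied (-0.04 to 0.61, -0.67 to 0.26 and -0.49 to 0.09). Bounds shrank most where background was not subtracted: Acvr1b ran from 6.65 to 34.9-fold, Tgfbi from 7.51 to 35.9, Smurf1 from 3.79 to 15.0, Smurf2 from 2.75 to 10.7 and Nedd4l from 2.56 to 11.3, whereas Trim33, Thbs1, Ppm1a and Map3k7 came down to under 2-fold. No paired analysis was possible because each group has 1 array, and for the same reason no replicate could be left out. Signals near 20 limit Smad2, the second Smad4 probe and Tgfb1.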
